A study of Rattus norvegicus with 4 samples.

Results

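Cells take up and exchange amino acids, neurotransmitters and related small molecules through families of solute carriers (Slc). Members of Slc1, Slc6, Slc36 and Slc38 couple the movement of a substrate to sodium, chloride or protons, the Slc7 light chains exchange amino acids as partners of an Slc3 heavy chain, and Slc17, Slc18 and Slc32a1 include the carriers that fill synaptic vesicles. In nervous tissue, glial carriers clear GABA, glycine and glutamate around axons and synapses and supply glia with the precursors of glutamine and glutathione.

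The genes described here are those whose name in the array design, once an ending that marks it as predicted or mapped is removed, puts them in Slc1a4 to Slc1a9 or in Slc3a, Slc6a, Slc7a, Slc17a, Slc18a, Slc32a, Slc36a or Slc38a. The rule used names only and no measured value. It found 55 of 35658 gene names, with 65 of 41012 probes on 74 of 43379 spots, since 1 Slc17a6 probe was spotted 10 times and 9 genes had over 1 probe.

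The series compared cultured olfactory ensheathing cells, the glia around the axon bundles of the olfactory nerve, from the olfactory mucosa (labelled with Cy5) and from the olfactory bulb (labelled with Cy3). Both came from male Fischer rats and were grown by 1 protocol. Each of 4 arrays of a 2-colour Agilent design held 1 mucosa and bulb pair. The labels call the arrays biological replicates without saying which animals or cultures they came from, so p-values measure the spread between these pairs. RNA was amplified by a global PCR whose steps are not disclosed, and 250 ng of cDNA was labelled per channel. Mucosa cells carried Cy5 on every array, so the dye and the tissue cannot be told apart.

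Ratios are log2 of mucosa over bulb after background correction and loess normalization within each array, given as the mean ± SD over 4 arrays. Levels are log2 normalized signals, taken after a further step that gave the mean log2 signal of both channels the same distribution on every array. The spread of levels between arrays is therefore that left after this step. Levels are compared between channels at 1 probe and not between probes. A probe counted as detected in a channel if it was well above background, by the scanner software's flag, on at least 3 arrays. It was tested if it was detected in at least 1 channel, and was called if limma's adjusted p (Benjamini-Hochberg over all 36746 tested probes) was under 0.05. Having 4 arrays limits the precision, and the smallest call on the whole array was a log2 ratio of 0.89 in size.

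The median spot signal was between 567 and 842 in the mucosa channel and between 342 and 382 in the bulb channel, and 82.8% to 91.1% of spots in a channel were well above background. The cultures were checked against marker lists. All 12 markers of ensheathing and Schwann glia were detected in both channels, and 6 of them were lower and 0 higher in mucosa cells, with a summed log2 level of 14.5 to 14.6 in mucosa cells and 15.6 to 15.9 in bulb cells. Detection alone does not set these glia apart. Of all probes 86.2% were detected in mucosa cells and 87.7% in bulb cells, and every tested astrocyte, oligodendrocyte and epithelial marker was detected in both. Of 10 fibroblast and meningeal markers, 3 were higher and 2 lower, with summed levels of 17.9 to 18.1 in mucosa cells and 16.7 to 17.2 in bulb cells. Those higher were Col1a1 (1.82), Col1a2 (2.27) and Thy1 (3.90), and those lower Fbln1 (-4.15) and Dcn (-2.01). Of 5 tested smooth muscle and pericyte markers, 3 were above and 0 below bulb cells by the test, with summed levels of 16.5 to 16.7 in mucosa cells and 14.0003 to 14.7 in bulb cells. Of 10 neuronal markers, 0 were higher and 2 lower, with 11.1 to 11.5 in mucosa cells and 12.1 to 12.4 in bulb cells. Summed levels weigh the brightest probes of a list most. The median ratios were -1.15 for ensheathing and Schwann glia, -0.25 for fibroblasts and meninges, 1.30 for smooth muscle and pericytes and -0.11 for neurons. Among tested markers of these and of 5 further lists, none was below background on all arrays of a channel. The part of these markers in the transporter differences was not tested, and in such bulk samples fewer cells of a type and less RNA per cell cannot be told apart.

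Of the transporters, 6 probes of 5 genes were higher and 4 probes of 4 genes lower in mucosa cells, among 55 tested probes of 46 genes. The background over all tested probes was 3.13% higher and 3.42% lower, 6.54% in either direction. Those higher carry taurine (Slc6a6) and neutral or cationic amino acids (Slc38a4, Slc38a2, Slc1a4, Slc7a1). Those lower include genes whose products carry GABA across the plasma membrane (Slc6a13), exchange cystine for glutamate (Slc7a11) and load monoamines into vesicles (Slc18a2). With the brightest tested probe standing for each gene, 5 genes were higher and 3 lower, beside 3.17% and 3.31% of all 31895 gene names (6.48% in either direction), and Slc18a2 was called at its dimmer probe only. The median ratio was 0.17 over the 55 tested probes and -0.0040 over all tested probes. Median centring in place of loess gave 58.5% of all called probes as higher, against 47.8%, and 7 transporter probes as higher with 3 as lower.

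Without replicate 2, transporter probes called were 2 higher and 1 lower, the fewest of any array left out. Without replicate 1, 4 were higher and 1 lower, without replicate 4 likewise 4 and 1, and without replicate 3, 5 and 2. Calls over all tested probes also dropped, to between 315 and 610 higher and between 288 and 620 lower, against 1150 and 1255 with every array.

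The levels of the channels did not overlap, with mucosa above bulb, at 10 of 55 probes, which is 18.2% beside 11.1% of all tested probes. With bulb above mucosa they did not overlap at 5 probes, 9.09% beside 9.61% of all. The ratio had the same sign on all arrays at 23 probes (14 positive, 9 negative), 41.8% against 33.4% of all tested probes. At 44 of 55 probes the mean ratio was under 1 in size.

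**Figure D1:**
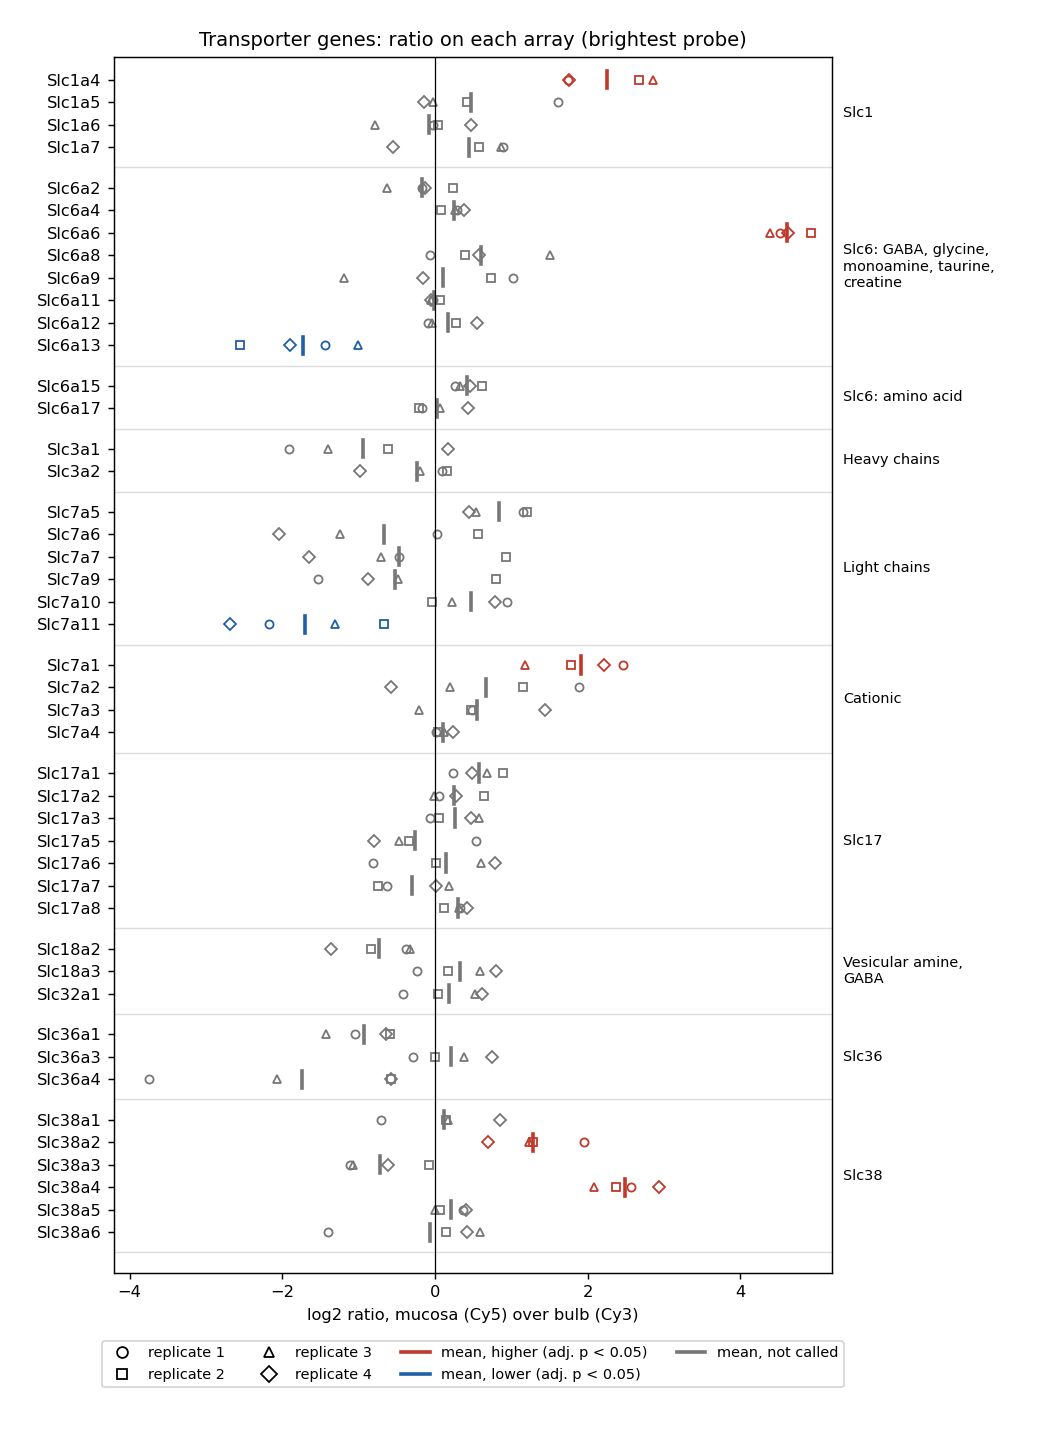
Log2 ratio of mucosa over bulb (x axis) for the brightest probe of 45 of the 46 tested transporter genes (y axis, by family), 1 symbol per replicate and a bar at the mean. Slc6a6 stands farthest to the right with a mean of 4.61, Slc6a13 has a mean of -1.73, and most genes lie near 0.

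The array measured the genes with probes of 60 bases, whose deposited sequences and rn4 positions show which stretch of the transcript each ratio stands for. Of the probes higher in mucosa cells, that of Slc6a6 lies at chr4:125940810-125942515 (plus strand), a span of 1706 bases for a probe of 60, so it joins blocks that are apart in the genome. The others are those of Slc38a4 at chr7:135693025-135693084 (minus), Slc1a4 at chr14:101123891-101123950 (minus), Slc7a1 at chr12:7253391-7253451 (plus) and Slc38a2 at chr7:135365535-135365594 (minus, the brighter) and chr7:135370146-135370205 (minus, the dimmer). No annotation of exons or UTRs on rn4 was used here.
Slc6a6: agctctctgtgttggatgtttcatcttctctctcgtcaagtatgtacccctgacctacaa
Slc38a4: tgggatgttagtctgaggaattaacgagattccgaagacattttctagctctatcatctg
Slc1a4: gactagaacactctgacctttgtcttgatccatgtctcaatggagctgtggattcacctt
Slc7a1: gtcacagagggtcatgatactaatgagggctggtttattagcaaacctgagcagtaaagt
Slc38a2, brighter probe: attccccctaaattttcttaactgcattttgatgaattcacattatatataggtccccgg
Slc38a2, dimmer probe: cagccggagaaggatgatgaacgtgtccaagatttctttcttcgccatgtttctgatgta

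Of the probes lower in mucosa cells, that of Slc6a13 lies at chr4:157771827-157771886 (plus) and that of Slc18a2 at chr1:265824461-265824520 (plus). That of Slc7a11 lies at chr2:139248421-139254202 (minus), a span of 5782 bases, so it too joins separate blocks. The GC content of the 65 transporter probes was between 25% and 55% with a median of 45%, against a median of 43.3% over all probes.
Slc6a13: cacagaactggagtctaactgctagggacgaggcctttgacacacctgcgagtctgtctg
Slc7a11: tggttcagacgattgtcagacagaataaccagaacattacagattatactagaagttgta
Slc18a2, dimmer probe: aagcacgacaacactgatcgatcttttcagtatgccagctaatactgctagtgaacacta

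Slc1 carriers move neutral amino acids or glutamate. Slc1a4 (ASCT1), an exchanger of alanine, serine and cysteine, was the family's only called member of 4 tested. Its levels in replicates 1 to 4 were 10.29, 10.41, 10.82 and 9.996 in mucosa cells, against 8.55, 7.73, 7.96 and 8.25 in bulb cells. Every mucosa level was above every bulb level. The ratio was 2.25 ± 0.59, a 4.77-fold higher signal in mucosa cells (limma adjusted p = 0.00959, higher on 4 of 4 arrays), and without replicate 2 the adjusted p was 0.0550.

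The glutamine carrier Slc1a5 (ASCT2) had ratios of 1.60, 0.42, -0.02 and -0.14, with overlapping levels (0.47 ± 0.80, limma adjusted p = 0.442), and its dimmer probe was not tested. The glutamate carriers Slc1a6 and Slc1a7, best known from cerebellum and retina, had ratios of -0.07 ± 0.52 and 0.44 ± 0.68. Of the glutamate carriers that the name rule leaves out, Slc1a3 (GLAST) was lower in mucosa cells at -1.85 ± 0.83 (limma adjusted p = 0.0319), at -0.81 by its other probe. It lost the call with any array left out and had -2.90 by the deposited ratio, and was well above background on 3 mucosa arrays. Slc1a2 (GLT-1) had 0.51 ± 0.42 and Slc1a1 (EAAC1) had -0.52 ± 1.13, and neither was called.

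In the Slc6 family, whose members couple uptake to sodium and chloride, the taurine carrier and the GABA carrier GAT2 lay on opposite sides of 0. Of 12 genes for carriers of GABA, glycine, monoamines, betaine, taurine, creatine and proline, 9 were tested, and Slc6a6 and Slc6a13 were among those called. Slc6a6, which takes up taurine and beta-alanine, had levels of 15.06, 15.33, 15.42 and 15.10 in mucosa cells, against 10.54, 10.41, 11.03 and 10.47 in bulb cells. The channels were far apart on every array, and the replicates of each lay close together. The ratio was 4.61 ± 0.23, which is 24.5-fold higher in mucosa cells (limma adjusted p = 0.00131, higher on 4 of 4 arrays). It was the largest ratio among the transporters under the main processing and was called under all 12 alternatives and with any array left out. Among these alternatives, leaving out saturated probes removed no tested probe.

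Slc6a13 (GAT2), a GABA carrier known from the meninges and liver, had levels of 9.32, 9.37, 9.59 and 9.21 in mucosa cells, against 10.76, 11.92, 10.60 and 11.12 in bulb cells. The mucosa levels were close together and all below the bulb levels, of which replicate 2 was highest. The ratio was -1.73 ± 0.66, 3.31-fold lower in mucosa cells (limma adjusted p = 0.0252, lower on 4 of 4 arrays). The call was lost without replicate 1, 2 or 4 (adjusted p up to 0.0901), by the deposited ratio (0.0527) and with a trended, robust variance (0.0657).

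The GABA carriers GAT3 and BGT1 did not pass the test. Slc6a11 (GAT3) had ratios of -0.02, 0.06, -0.05 and -0.05, with a mean of -0.01 ± 0.05, the smallest SD of the tested transporters. Slc6a12 (BGT1), which carries betaine and GABA and whose probe lies 24.0 kb from that of Slc6a13, had 0.17 ± 0.30. Both were well above background on every array in both channels.

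The creatine carrier Slc6a8 had ratios of 0.60 ± 0.66 and 0.47 ± 1.53 at its brighter and dimmer probes, and the glycine carrier Slc6a9 (GlyT1) had 0.10 ± 1.00. The noradrenaline carrier Slc6a2 had -0.17 ± 0.36. The serotonin carrier Slc6a4 had 0.25 ± 0.13 at its brighter and -0.32 ± 0.53 at its dimmer probe. None of these was called. The carriers of dopamine (Slc6a3), glycine in nerve terminals (Slc6a5) and proline (Slc6a7) were not tested. Slc6a5 was well above background on no array in either channel, Slc6a3 on 2 mucosa arrays and Slc6a7 on 1.

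Of 4 Slc6 amino acid carriers, 2 were tested and 0 called. Slc6a15, which takes up branched-chain amino acids and proline, had levels of 6.89, 7.46, 6.95 and 7.20 in mucosa cells, against 6.63, 6.84, 6.61 and 6.74 in bulb cells. The levels did not overlap, but the ratio of 0.42 ± 0.16 did not pass the test (limma adjusted p = 0.264). Slc6a17, a carrier of synaptic vesicles, had 0.03 ± 0.29, and Slc6a14 and Slc6a18 were not tested.

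**Figure D2:**
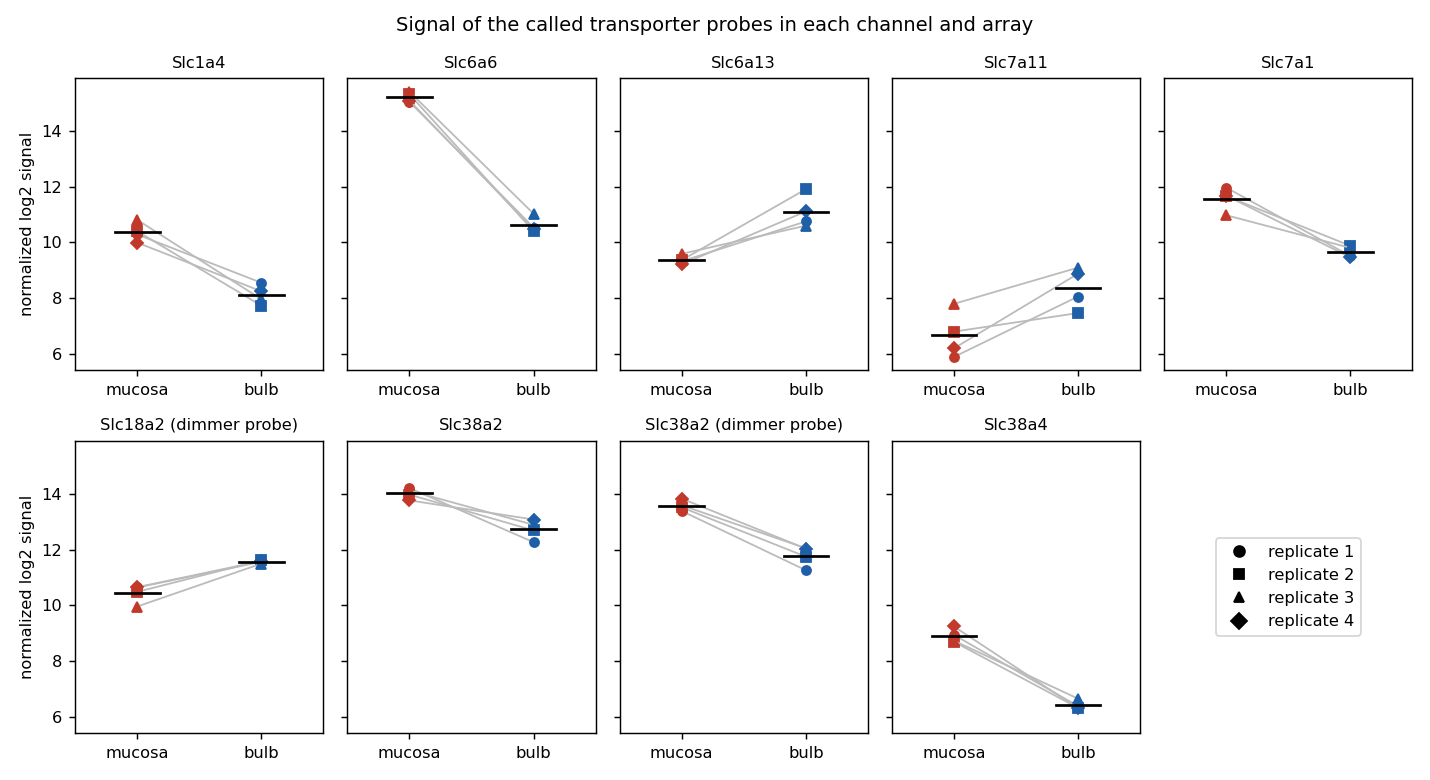
Normalized log2 signal (y axis, shared) of 9 of the 10 called transporter probes in the mucosa and bulb channel of each array, with a grey line joining the pair, 1 symbol per replicate and a bar at the mean of each channel. Slc6a6 averages above 15 in mucosa cells and Slc7a11 is the panel in which the channels overlap. Levels of different probes are not comparable.

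Heteromeric transporters pair an Slc3 heavy chain with an Slc7 light chain. Neither heavy chain was called, and of 6 tested light chains 0 were higher and 1 was lower in mucosa cells. Slc3a2 (4F2hc), the partner of most light chains measured here, had levels of 13.27, 13.24, 12.81 and 12.28 in mucosa cells, against 13.17, 13.09, 13.01 and 13.26 in bulb cells. The channels overlapped, with mucosa above bulb in replicates 1 and 2 and below it in replicates 3 and 4 (-0.23 ± 0.52, limma adjusted p = 0.626). Slc3a1 (rBAT), the heavy chain of the renal cystine carrier, had ratios of -1.91, -0.61, -1.40 and 0.17, with a mean of -0.94 ± 0.91 (adjusted p = 0.188).

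Slc7a11 (xCT), the light chain that imports cystine in exchange for glutamate, had levels of 5.89, 6.80, 7.80 and 6.20 in mucosa cells, against 8.06, 7.47, 9.099 and 8.88 in bulb cells. Bulb was above mucosa within each pair, but the mucosa level of replicate 3 was above the bulb level of replicate 2. Slc7a11 was well above background on 2 arrays in mucosa cells and on 4 in bulb cells. The ratio was -1.71 ± 0.90, 3.27-fold lower in mucosa cells (limma adjusted p = 0.0462, lower on 4 of 4 arrays). This call was lost under 5 of 11 alternatives and with any 1 array left out (adjusted p up to 0.149), and the deposited ratio gave -3.57 (adjusted p = 0.101).

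Slc7a5 (LAT1), which imports large neutral amino acids, had levels of 12.89, 12.80, 12.25 and 12.01 in mucosa cells, against 11.74, 11.60, 11.71 and 11.56 in bulb cells. The levels did not overlap, and the ratio of 0.84 ± 0.39 did not pass the test (limma adjusted p = 0.0944). Slc7a7, a light chain for cationic amino acids that was detected in bulb cells (4 arrays) and not in mucosa cells (2 arrays), had ratios of -0.48, 0.94, -0.71 and -1.65, with a mean of -0.48 ± 1.07 (adjusted p = 0.525).

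Ratios of the other tested light chains were -0.67 ± 1.19 for Slc7a6, which exchanges cationic for neutral amino acids, and -0.52 ± 0.99 for Slc7a9, the partner of Slc3a1. Slc7a10 (Asc-1), a carrier of small neutral amino acids and D-serine, had 0.47 ± 0.46 at its brighter probe. At its dimmer probe, where levels did not overlap, it had 0.36 ± 0.30. Slc7a8 (LAT2) and Slc7a13 were not tested.

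The cationic amino acid transporters take up arginine, lysine and ornithine, and 1 of 4 was called. Slc7a1 (CAT1), the member found in most cell types, had levels of 11.98, 11.67, 10.98 and 11.69 in mucosa cells, against 9.51, 9.88, 9.81 and 9.47 in bulb cells. Every mucosa level was above every bulb level. The ratio was 1.91 ± 0.57, 3.76-fold higher in mucosa cells (limma adjusted p = 0.0150, higher on 4 of 4 arrays), and the call was lost without replicate 1, 2 or 4 (adjusted p up to 0.0687).

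The dimmer Slc7a1 probe had ratios of 1.36, 1.03, -0.42 and -0.75, with a mean of 0.30 ± 1.05 (limma adjusted p = 0.686), so the probes of this gene differed by 1.61. The mean turned to -0.048 without replicate 1. Slc7a2 (CAT2) had 0.66 ± 1.08 and 0.42 ± 1.83 at its probes, the second being the largest SD among tested transporters. Slc7a3 (CAT3), detected in mucosa cells (3 arrays) and not in bulb cells (2 arrays), had ratios of 0.49, 0.48, -0.21 and 1.43 (0.55 ± 0.67, limma adjusted p = 0.325). The orphan Slc7a4, detected in bulb cells (3 arrays) and not in mucosa cells (2 arrays), had ratios of 0.01, 0.03, 0.12 and 0.23 (0.10 ± 0.10, limma adjusted p = 0.792), and -0.36 by median centring.

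Slc38 carriers take up glutamine, alanine and other neutral amino acids with sodium. Mucosa cells had 2 of the 6 tested genes higher and 0 lower. Slc38a4 (SNAT4), known from the liver for neutral and cationic amino acids, had levels of 8.93, 8.69, 8.72 and 9.23 in mucosa cells, against 6.37, 6.31, 6.64 and 6.30 in bulb cells. It was well above background on every array in mucosa cells and on none in bulb cells. Its ratio was 2.49 ± 0.36 (limma adjusted p = 0.00428, higher on 4 of 4 arrays), a 5.62-fold higher signal in mucosa cells. The dimmest bulb signal flagged well above background on each array was not above the Slc38a4 bulb level. Using it as a floor therefore could not change this fold, and it is no check of its size. Slc38a4 was called under all 11 alternatives that tested it and with any array left out. The alternatives gave ratios from 2.42 by median centring to 6.01 by the deposited ratio.

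Slc38a2 (SNAT2), which cells raise when amino acids are short or the medium is hypertonic, was called at both of its probes. The brighter had levels of 14.21, 13.97, 14.12 and 13.77 in mucosa cells, against 12.26, 12.69, 12.89 and 13.08 in bulb cells. The dimmer had 13.39, 13.52, 13.59 and 13.83 in mucosa cells, against 11.26, 11.74, 12.05 and 12.03 in bulb cells. At neither probe did the channels overlap.

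The ratio of Slc38a2 was 1.29 ± 0.51 at the brighter probe, 2.44-fold higher in mucosa cells (limma adjusted p = 0.0403). At the dimmer it was 1.81 ± 0.24, 3.51-fold higher (limma adjusted p = 0.00763), and both were higher on 4 of 4 arrays. The brighter probe lost its call with any array left out (adjusted p up to 0.142) and under 4 of 12 alternatives. The dimmer lost it only without replicate 2 (0.0515).

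The rn4 positions place the Slc38a1, Slc38a2 and Slc38a4 probes in a row on chromosome 7, 111 kb and 327 kb apart, with ratios of 0.12, 1.29 and 2.49. Slc38a1 (SNAT1) was not called (0.12 ± 0.64). Nor was Slc38a3 (SNAT3), a glutamine carrier of astrocytes and liver, at -0.72 ± 0.49, nor Slc38a5 (SNAT5) at 0.21 ± 0.21. Slc38a6 had -0.06 ± 0.91, 0.10 ± 1.22 and -0.80 ± 0.46 at its probes, with 0 of 3 called.

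**Figure D3:**
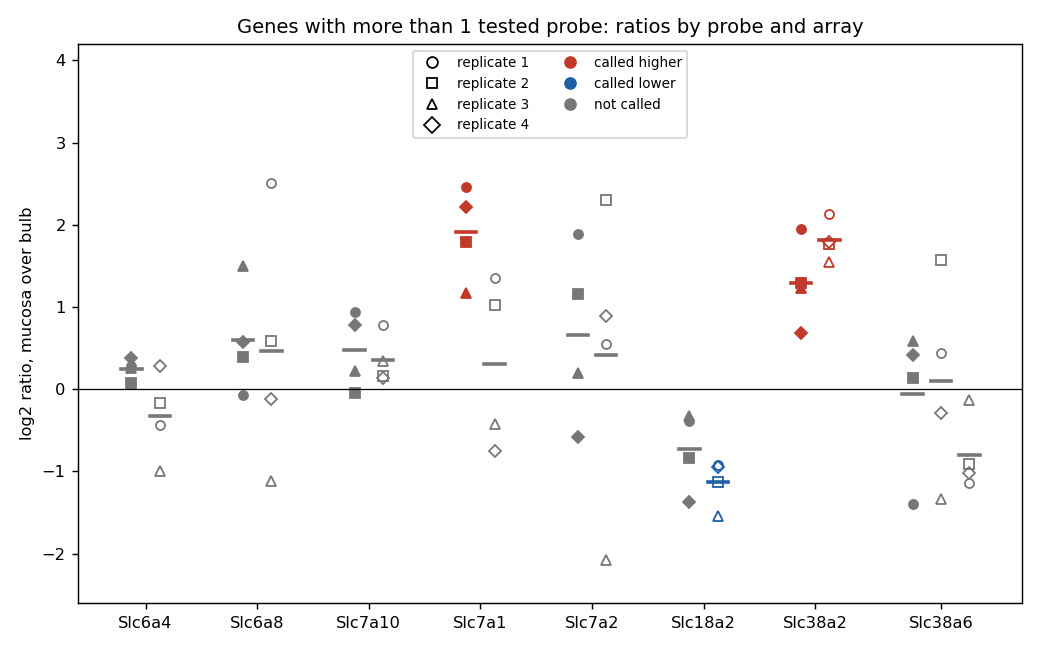
Log2 ratio of mucosa over bulb (y axis) by probe and replicate for the 8 transporter genes with over 1 tested probe (x axis), brightest probe filled and first, with a bar at each mean. Both Slc38a2 probes lie above 0 on every array, the Slc7a1 probes differ by 1.61 in their means, and the probe means of Slc6a4 and Slc38a6 lie on both sides of 0.

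Slc36 carriers move amino acids across the plasma membrane and out of lysosomes, and several of them couple this to protons. Of 3 tested, 0 were called. Slc36a4, a high-affinity carrier of proline and tryptophan, had levels of 6.07, 8.31, 6.57 and 7.48 in mucosa cells, against 9.82, 8.89, 8.64 and 8.05 in bulb cells. Its ratios were -3.74, -0.57, -2.07 and -0.57, so replicate 1 was far from replicates 2 and 4, and the mean of -1.74 ± 1.51 did not pass the test (limma adjusted p = 0.126). Without replicate 1 it was -1.07. Slc36a1 (PAT1) was lower on 4 of 4 arrays without overlap, at -0.93 ± 0.39 (limma adjusted p = 0.0738), Slc36a3 had 0.21 ± 0.45, and Slc36a2 was well above background on no array.

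None of the 7 Slc17 genes, all tested, was called, and their ratios lay between -0.30 and 0.57. The vesicular glutamate carriers Slc17a6 (VGLUT2), Slc17a7 (VGLUT1) and Slc17a8 (VGLUT3) had 0.14 ± 0.72, -0.30 ± 0.46 and 0.29 ± 0.12. All 3 were well above background on every array in both channels, with mean levels of 7.25, 7.02 and 7.42 in mucosa cells and 7.10, 7.32 and 7.13 in bulb cells. Of all probes 86.2% were detected in mucosa cells and 87.7% in bulb cells, so detection alone does not set these genes apart. Slc17a5 (sialin), which exports sialic acid from lysosomes, had -0.27 ± 0.57.

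Slc17a1, a phosphate and urate carrier first described in kidney, had levels of 9.90, 10.49, 10.08 and 9.997 in mucosa cells, against 9.67, 9.60, 9.39 and 9.52 in bulb cells. The levels did not overlap, and the ratio of 0.57 ± 0.28 did not pass the test (limma adjusted p = 0.176). Slc17a2, detected in mucosa cells (3 arrays) and not in bulb cells (1 array), had ratios of 0.06, 0.65, -0.01 and 0.28 (0.24 ± 0.30, limma adjusted p = 0.536), and -0.12 by median centring. Slc17a3 had 0.26 ± 0.31.

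Of the vesicular carriers of monoamines, acetylcholine and GABA, 3 of 4 genes were tested. Slc18a2 (VMAT2) was lower in mucosa cells at its dimmer probe, with levels of 10.64, 10.48, 9.95 and 10.65 in mucosa cells, against 11.56, 11.61, 11.49 and 11.59 in bulb cells. Bulb levels were within a narrow range and all above the mucosa levels. The ratio was -1.13 ± 0.29, 2.19-fold lower in mucosa cells (limma adjusted p = 0.0340, lower on 4 of 4 arrays). The call was lost under median centring, the deposited ratio and the trended, robust variance, and with any array left out (adjusted p up to 0.135).

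At its brighter probe Slc18a2 had ratios of -0.38, -0.83, -0.33 and -1.37, with levels that did not overlap, and a mean of -0.73 ± 0.48 (limma adjusted p = 0.152). Slc18a3, the vesicular acetylcholine carrier, had 0.33 ± 0.46, and Slc32a1, the vesicular carrier of GABA and glycine, had 0.19 ± 0.48. Neither was called. Slc18a1 (VMAT1) was well above background on no array.

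Detection was alike in number in the channels. In mucosa cells 51 of 65 probes (42 genes) were detected, and in bulb cells 52 (43 genes), with 48 probes (39 genes) detected in both. As shares this was 78.5% in mucosa cells and 80% in bulb cells, beside 86.2% and 87.7% of all probes. Detected in mucosa cells only were Slc38a4, Slc7a3 and Slc17a2, and those detected in bulb cells only included Slc7a11, Slc7a7 and Slc7a4. Of the genes just named, Slc38a4 and Slc7a11 were called, and at 2 of the others the counts differed by 1 array. Detection was not tested between channels, since dye and tissue cannot be told apart.

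Not detected in either channel were 10 probes, covering the 9 untested genes and the dimmer Slc1a5 probe. Their log2 levels lay between 5.76 and 7.67 in mucosa cells and between 5.79 and 6.32 in bulb cells. Slc6a5, Slc6a18, Slc7a13, Slc18a1 and Slc36a2 were well above background on no array in either channel. Slc6a14 was so on 1 array in each channel and Slc7a8 on 1 mucosa array.

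**Figure D4:**
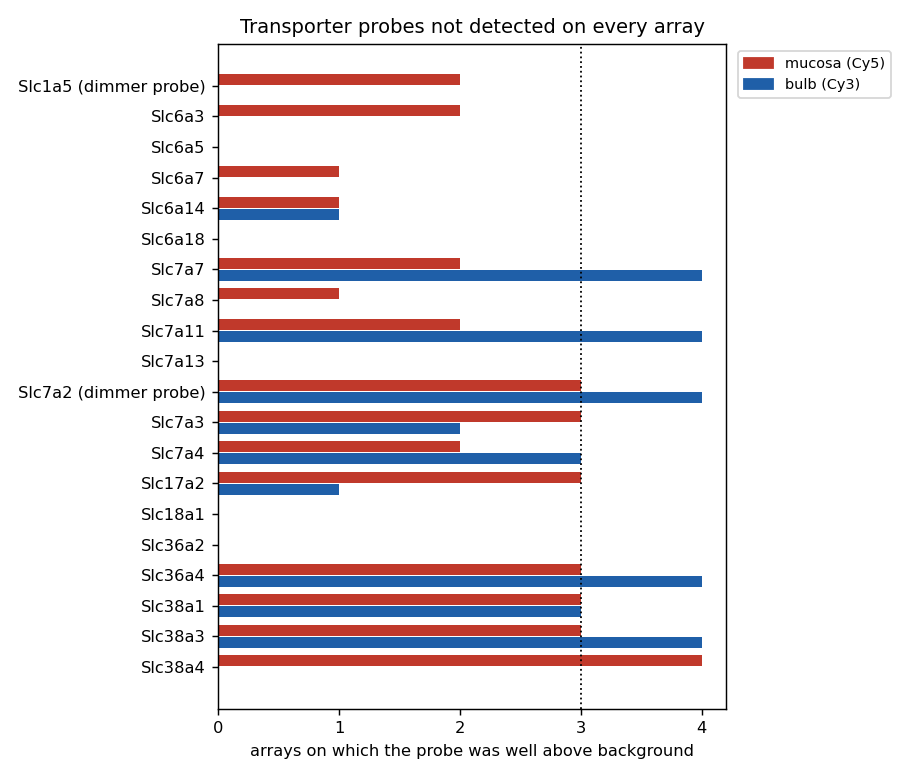
Number of arrays (x axis, 0 to 4) on which a transporter probe was well above background in the mucosa channel (red) and the bulb channel (blue), for probes that were not so on every array in both channels. The dotted line marks the 3 arrays needed for detection. Slc38a4 stands at 4 in mucosa and 0 in bulb, and Slc7a11 at 2 in mucosa and 4 in bulb.

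The genes that make, use or sense the transported substrates were taken from 6 lists, with the brightest tested probe of each gene, beside 3.17% higher and 3.31% lower over all gene names. Of 9 tested genes of glutathione synthesis, the use to which imported cystine is put, 2 were higher and 0 lower, with a median of 0.082. Cth, which makes cysteine from cystathionine, had ratios of 0.86, 2.43, 2.26 and 3.53 (2.27 ± 1.09, limma adjusted p = 0.0319). Gclc, the catalytic subunit of glutamate-cysteine ligase, had 2.06, 1.68, 1.80 and 0.61 (1.54 ± 0.63, limma adjusted p = 0.0332). Both were above 0 on every array while the cystine carrier Slc7a11 was below 0 on every array. Each lost its call under 2 of 12 alternatives, Cth without replicate 2, 3 or 4 (adjusted p up to 0.115) and Gclc without replicate 1, 2 or 3 (up to 0.128).

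Of 7 tested genes of creatine and taurine synthesis and creatine kinases, 0 were higher and 2 lower, with a median of -0.19. They were the enzymes of creatine synthesis. Gatm had ratios of -2.67, -2.76, -2.09 and -2.19 (-2.42 ± 0.34, limma adjusted p = 0.00442), kept its call with any array left out, and was well above background on 2 arrays in mucosa cells. By the deposited ratio it had -4.002. Gamt had -1.44 ± 0.40 (limma adjusted p = 0.0216), with -1.16 by its other probe, and lost the call without replicate 1, 2 or 4. The taurine-synthesis genes of the list, Cdo1 and Csad, were not called, at 1.74 ± 1.00 (adjusted p = 0.0546) and 0.19 ± 0.64.

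Of 11 tested enzymes of monoamines, histamine and acetylcholine, 0 were higher and 1 lower, with a median of 0.21. Maoa, a mitochondrial oxidase of serotonin and noradrenaline, had ratios of -0.64, -2.68, -3.003 and -2.49 (-2.20 ± 1.06, limma adjusted p = 0.0324) and -2.20 by its other probe, and lost the call without replicate 2, 3 or 4 (adjusted p up to 0.120). Of 10 tested genes of amino acid sensing by mTORC1, 0 were higher and 1 lower, with a median of -0.43. Rragd, a Rag GTPase that recruits mTORC1 to lysosomes, had ratios of -3.52, -2.99, -2.99 and -3.09 (-3.15 ± 0.25, limma adjusted p = 0.00207). It kept its call with any array left out, was well above background on 2 arrays in mucosa cells, and had -4.45 by the deposited ratio. The Rag genes Rraga and Rragc were also below 0 on every array but not called. They had -0.96 ± 0.27 and -1.09 ± 0.53 (limma adjusted p = 0.0515 and 0.0663), and no probe matched Rragb.

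None of the 11 genes of serine, glycine and asparagine synthesis was called, with a median of 0.19 and ratios between -0.27 and 1.00. Nor was any of the 10 genes of the ATF4 response, the programme that raises several amino acid carriers in amino acid shortage. Their median was 0.48, with Atf4 itself at 0.25 ± 0.79, and their ratios lay between -1.45 and 1.24. Atf5 (1.24 ± 0.82), Trib3 (1.03 ± 0.35), Ddit3 (0.98 ± 0.51) and Ddit4 (0.45 ± 0.36) were above 0 on every array. For these the limma adjusted p was 0.0907, 0.0506, 0.0827 and 0.294. Eif2ak3 was below 0 on every array (-1.45 ± 0.80, limma adjusted p = 0.0577). Chac1 and Eif4ebp1 had means of -0.35 and -0.19 at their brighter probes. The median over all tested probes was -0.0040.

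**Figure D5:**
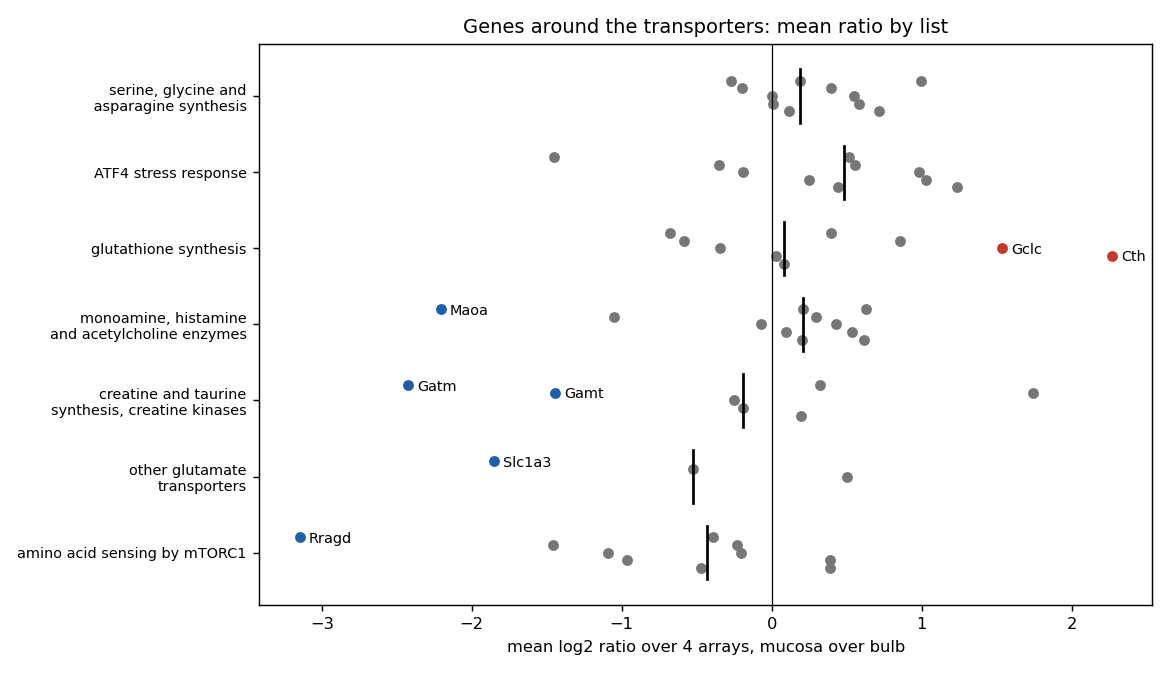
Mean log2 ratio of mucosa over bulb over 4 arrays (x axis) for each tested gene of the lists around the transporters and of Slc1a1, Slc1a2 and Slc1a3 (y axis), with called genes named, red for higher and blue for lower in mucosa cells. Black bars are list medians. Gclc and Cth lie to the right and Rragd farthest to the left at -3.15.

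ATF4 binds an element written TGATGNAA. The element was looked for on both strands of the 300 bases from 250 before to 50 after the gene start, taken from RefSeq on GRCr8. Of the 55 genes 42 had such a sequence, and 3 held the element (Slc1a4, Slc7a1 and Slc38a1), 7.14% against 3.98% of all 33469 promoters. The 7.14% is a share of genes and the 3.98% a share of promoters, and an element outside these 300 bases would not be seen. Of the 5 genes higher in mucosa cells, all with a sequence, Slc1a4 and Slc7a1 held it and Slc6a6, Slc38a2 and Slc38a4 did not. Slc38a1 held it and was not called, and Slc7a11, lower in mucosa cells, had a sequence without it. Whether the element goes with the calls was not tested. In Slc1a4 (chr14:98761513-98761812, minus strand) the match starts at position -235 from the gene start and reads TTGCATCA, the element on the opposite strand. In Slc7a1 (chr12:11664238-11664537, plus strand) it starts at -30 and reads TGATGAAA. Capitals mark the matches, which describe letters only, and overlap with other motifs was not examined.
Slc1a4: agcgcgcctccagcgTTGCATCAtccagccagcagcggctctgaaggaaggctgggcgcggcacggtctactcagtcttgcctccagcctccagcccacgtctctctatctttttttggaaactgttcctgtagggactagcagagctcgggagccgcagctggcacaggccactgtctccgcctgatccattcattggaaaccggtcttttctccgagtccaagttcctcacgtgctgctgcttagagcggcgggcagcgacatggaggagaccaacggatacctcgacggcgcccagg
Slc7a1: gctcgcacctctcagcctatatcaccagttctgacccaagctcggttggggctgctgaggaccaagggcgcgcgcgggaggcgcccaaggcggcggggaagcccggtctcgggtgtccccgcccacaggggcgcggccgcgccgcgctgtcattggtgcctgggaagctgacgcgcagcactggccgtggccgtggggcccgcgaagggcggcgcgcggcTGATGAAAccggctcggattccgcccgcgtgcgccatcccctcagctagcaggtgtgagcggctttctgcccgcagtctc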

How the data were processed

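The deposited scanner files of 4 arrays were read. Agilent Feature Extraction 10.5.1.1 wrote them, per the file headers, whereas version 9.1 stands in the submitters' processing notes. They hold, as deposited and unnormalized, a linear intensity for each spot and its background. The scanner software also gave processed intensities, corrected for background and dye bias, and a log10 ratio (Cy5 over Cy3), per the file headers. The deposited value table holds the same log10 ratios (largest difference 0), with column medians of 0, 0, 0 and 0.000422. Flags for spots well above background, saturated or outlying were used as deposited. Probe positions are rn4, per the file headers.

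Mean signals were corrected for median local background with normexp (offset 50) and normalized by loess within arrays in limma 3.58.1 (R 4.3.3), giving log2 ratios computed here from the deposited signals. Levels, which the unpaired fit also used, were taken after quantile normalization of mean intensities between arrays (Aquantile in limma), which leaves the ratios unchanged. Control and outlier spots were dropped, and replicate spots of a probe averaged. A probe was well above background on an array if at least 0.5 of its spots were. The filter removed 4263 probes, 36 tested probes lacked a ratio on some array (0 of them transporters), and 0 transporter probes were saturated. The mean ratio was tested against 0 with lmFit and eBayes, so the pair is the block, and Benjamini-Hochberg adjustment ran over all tested probes. Moderation gave 6.36 degrees of freedom, and the fit was tested on simulated data. Arrays correlated with r between 0.35 and 0.54 over all tested probes (6 pairs) and shared 1 slide and 1 scan time.

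Names are those of the array design; 55 transporter probes matched a rat reference table (GRCr8) by accession and 10 by symbol. Members and lists were chosen with earlier results of these data known. Named with values were genes with a called probe, the largest ratio of each family group without one, genes detected in 1 channel only, and called genes of the lists; other genes were named after their values were seen, and some results are not reported here. Python 3.11.15 with pandas 2.3.3, numpy 2.4.6 and matplotlib 3.10.9 was used for reading and drawing.

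Alternatives were no background subtraction, the deposited ratio, an offset of 16, median centring, scaling between arrays, no filter or a strict one, saturated probes left out, outlier spots kept, 1 probe per gene name, a trended and robust variance, no replicate block (unpaired channels), each array left out, and detection on 1 or on all 4 arrays.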

Additional observations from a re-analysis of the deposited data

How the results depend on the processing

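Over the named transporter probes, 229 values under other processing settings gave 213 with the same direction and side of the threshold, 14 that lost the call and 2 that reversed. Reversed were Slc7a4 at -0.36 and Slc17a2 at -0.12, both under median centring. With 1 replicate left out, 59 of 80 values kept direction and side, 20 lost the call, and the dimmer Slc7a1 probe reversed to -0.048 without replicate 1 (range -0.048 to 0.65). Both sets of values include probes not called in the main fit, which had no call to lose. The filters, saturated probes left out, 1 probe per gene name, the trended, robust variance and the unpaired fit keep the main ratio. Direction could not change under these settings, and leaving out saturated probes removed no tested probe. Slc7a11, the brighter Slc38a2 probe and the dimmer Slc18a2 probe lost their calls whichever array was left out. Slc6a6 and Slc38a4 kept their calls under every alternative that tested them.

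Transporter probes lower in mucosa cells (4 in all) numbered 1 by the deposited ratio, 2 under the strict filter and 1 with a trended, robust variance, and genes (3) numbered 1 under each of the 3. With 1 replicate left out, probes higher numbered 2 to 5 and lower 1 to 2, and genes higher 2 to 4 and lower 1 to 2. Over all tested probes, the deposited ratio called 802 lower, and the trended, robust variance 652 higher and 390 lower. With no replicate block, as unpaired channels, 1944 were higher and 2041 lower, and of the transporter probes 7 higher and 3 lower. With 1 replicate left out, 315 to 610 were higher and 288 to 620 lower. The strict filter, which asked for every array in both channels, left out Slc7a11. Slc6a13 and the dimmer Slc18a2 probe stayed called under it (limma adjusted p = 0.0207 and 0.0297). The cause of the other shifts was not tested, except that fewer arrays leave fewer degrees of freedom. Transporter probes detected numbered 45 to 60 in mucosa cells and 50 to 55 in bulb cells with detection required on all or on 1 array.

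Several probes that were not well above background on every array had larger ratios by the deposited ratio than with the offset. Slc7a11 and Slc38a4 had -1.71 and 2.49 with the offset and -3.57 and 6.01 by the deposited ratio, and Gatm, Rragd and Slc1a3 had -2.42, -3.15 and -1.85 with it and -4.002, -4.45 and -2.90 by the deposited ratio. Of the transporters that were not called, Slc36a4 and Slc7a7 had -1.74 and -0.48 with it and -2.64 and -1.91 by the deposited ratio.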

Other observations

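Carriers of the same families that the array design lists under older names, and that the name rule did not find, had 10 probes. Of these 9 were tested and 0 were called by limma, with ratios between -1.28 and 0.54. The lowest was Slc38a9, a lysosomal arginine sensor of mTORC1, with ratios of -1.84, -0.76, -2.03 and -0.47 (-1.28 ± 0.78, limma adjusted p = 0.0768).

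Of the 55 tested transporter probes, 7 had ratios above 0 on replicates 1 and 2 and below 0 on replicates 3 and 4 (12.7%, against 5.78% of all tested probes), and 2 the opposite (3.64%, against 5.53%). The 7 are probes of Slc1a5, Slc6a8, Slc6a9, Slc3a2, Slc7a6, Slc7a1 and Slc38a6. The median Cy5 signal was 842 and 839 on the first pair of arrays and 567 and 598 on the other pair, and its part in this was not tested. This pattern was looked for after the values were seen.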
